A study of Mus musculus with 8 samples.

Results

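The fatty acid oxidation genes are 40 mouse genes that code for enzymes and carriers of fatty acid breakdown and of the closely related oxidation of branched-chain acyl groups. They were chosen by gene symbol from what their products do, with earlier results of these data known, and all 40 were found among the 13704 genes with reads in the 2 RNA-seq libraries of the study. The WT library and the KO library were made from Th17 cells, the IL-17 producing class of helper T cells, differentiated in culture from naive CD4+ T cells taken from C57BL/6 mice. Both cultures received 0.5 ng/ml TGFβ and 20 ng/ml IL-6 for 3 days and were then re-stimulated with anti-CD3. The KO cells carried loxP-flanked *Trim28* alleles and a Cre transgene driven by the *Cd4* promoter, so that deletion starts in the thymus, before the cells are put in culture. *Trim28* codes for a co-repressor scaffold protein of chromatin. The other 6 of the 8 samples were ChIP-seq and input samples, which were not analysed here. Whether the WT mice carried floxed alleles or Cre, and how many mice were pooled, is not given in the sources used here.

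There was 1 library per genotype, so no difference below has a replicate check, and no p-value is given. The WT library was the deeper, with 6650 k reads (k, 1000 reads) over 13078 genes, and 6185 k reads fell on 12754 genes in the KO library. *Trim28* had 4485 reads in WT and 180 in KO, or 674 and 29.1 counts per 1000000 library reads (CPM). The T cell genes *Cd3e* (4407 reads in WT, 4778 in KO) and *Cd4* (7904 and 6598) were high in both libraries. *Il17a* had 2226 reads in WT and 381 in KO. *Foxp3*, the defining gene of regulatory T cells, had 1 read in WT and 8 in KO. These were too few reads over both libraries for the gene to be tested, so no difference is called for it. Its part in the results below was not tested. The B cell list (7 of 8 genes with reads) summed to 15.6 and 12.9 CPM, the myeloid list (6 of 14) to 5.11 and 4.37 CPM and the CD8 pair to 7.97 and 4.69 CPM, while none of the 5 NK cell genes or the 7 erythroid genes was listed in either library. The T cell gene *Trac* was not listed in either library as well, so a gene that is not listed cannot be taken as not expressed. In bulk RNA, fewer cells that express a gene and less of its RNA per cell cannot be told apart.

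Mitochondrial fatty acid oxidation begins when a fatty acid is joined to coenzyme A by an acyl-CoA synthetase. The carnitine shuttle then carries the acyl group into the matrix, where each turn of the β-oxidation spiral takes off an acetyl unit by a first dehydrogenation, a hydration, a second dehydrogenation and a thiolysis. The first dehydrogenation is done by acyl-CoA dehydrogenases that differ in the chain length they accept and that pass electrons to the respiratory chain through the electron-transferring flavoprotein. Very long chains are shortened in peroxisomes, and chains with an odd number of carbons leave propionyl-CoA. In T cells, activated effector cells are known for glycolysis, and memory and regulatory T cells for a greater use of fatty acid oxidation.

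The outstanding member was *Acadm*, which encodes the medium-chain acyl-CoA dehydrogenase. It had 421 reads in WT and 2041 in KO, or 63.3 and 330.0 CPM. The KO level was thus 5.21-fold the WT level, with a log2 fold change (KO/WT, from counts scaled to the library totals with 0.5 added to each) of 2.38. Its exact 95% interval, based on the KO library's share of the gene's reads, spanned 2.23 to 2.54. Such intervals cover counting error only and do not include the variation between cultures or mice. By reads per kilobase of transcript and per 1000000 reads (RPKM), *Acadm* stood at place 12 of the 40 genes in WT, with 30.9 RPKM, and at place 1 in KO, with 161 RPKM.

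*Acadm* lies on chr3:153922353-153944643 of GRCm38 (the assembly behind mm10), on the minus strand, with 12 exons and 1 annotated transcript. The nearest listed gene upstream is *Slc44a5*, a member of the choline transporter-like family, on chr3:153973436-154271747 of the plus strand. The genes point away from each other, with 28.8 kb between their annotated starts. The 250 bases before each start are shown, 5′ to 3′ on the strand of the gene, since these genes were the pair with higher levels in KO in the region. They come from RefSeq (GRCm38.p6), at chr3:153944644-153944893 for *Acadm* and chr3:153973186-153973435 for *Slc44a5*, and capitals mark the nuclear receptor half-site AGGTCA or its reverse complement.
Acadm upstream: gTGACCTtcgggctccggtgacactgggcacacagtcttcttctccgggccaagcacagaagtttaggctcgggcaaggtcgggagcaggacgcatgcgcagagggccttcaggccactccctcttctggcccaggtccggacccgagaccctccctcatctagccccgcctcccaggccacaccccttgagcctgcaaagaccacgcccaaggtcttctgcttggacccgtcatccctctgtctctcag
Slc44a5 upstream: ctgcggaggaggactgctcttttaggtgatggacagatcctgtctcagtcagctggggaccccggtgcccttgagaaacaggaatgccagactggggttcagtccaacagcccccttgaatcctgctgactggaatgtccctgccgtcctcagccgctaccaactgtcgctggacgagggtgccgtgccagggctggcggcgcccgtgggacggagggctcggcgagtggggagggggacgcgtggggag

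*Slc44a5* had 4 reads in WT and 41 in KO, a log2 fold change of 3.31 with an interval from 2.00 to 5.40. *Acadm* had the more reads of the pair in both libraries, and both genes were more than 2-fold higher in KO. On the other side of *Slc44a5*, *Tyw3* had 4 reads in each library. On the downstream side of *Acadm*, *St6galnac3*, a sialyltransferase gene, had 5 reads in each library, and *Pigk*, which serves glycolipid anchor attachment, had 11 reads in WT and 7 in KO. Between *St6galnac3* and *Acadm*, the annotated genes *Rabggtb*, *Msh4* and *Asb17* were listed in neither library. Within 2 Mb of *Acadm*, a window chosen after the values were seen, 14 other genes had reads and 8 of them had at least 10 reads over both libraries. Of these 8, *Slc44a5* alone was past 2-fold higher (background 2.78%) and 0 were past 2-fold lower (background 6.07%). *Fpgt* was past counting error on the lower side, with 126 reads in WT and 66 in KO (log2 fold change -0.82, -1.28 to -0.39). *St6galnac3*, *Pigk*, *Fam73a* (11 reads in WT and 3 in KO) and *Zzz3* (12 and 5) had few reads, so 2-fold differences in them could be missed.

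**Figure D1:**
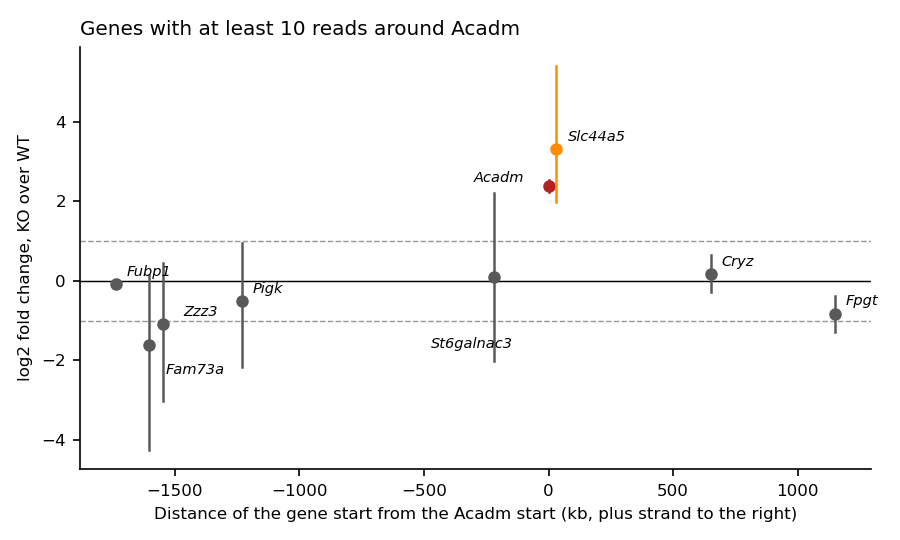
Log2 fold change (KO/WT, y axis) of each gene with at least 10 reads within 2 Mb of *Acadm*, by the distance of its start from the *Acadm* start in kb (x axis), with bars for the exact 95% intervals, which cover counting error only. *Acadm* at 2.38 and *Slc44a5* at 3.31 stand above the upper dashed 2-fold line, and the genes below the lower one, *Fam73a* and *Zzz3*, have intervals that hold 0.

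Across the 40 genes, differences between the libraries were mostly small. All 40 had at least 10 reads over both libraries, the minimum for a gene to be counted among the 10881 tested, and none was at 0 in either library. In KO, 26 were higher and 14 lower than in WT, while over all tested genes 5290 were higher and 5591 lower. Of the 40, 33 stayed within 1.5-fold in either direction, a count without a background share here. The quartiles of log2 fold change were -0.24 and 0.39 for the 40 genes and -0.41 and 0.30 for all tested genes. Small differences were thus not particular to the 40. A gene is called past counting error here when its interval leaves out 0, and past 2-fold when it is at least 2-fold different as well. Past 2-fold were *Acadm* on the higher side, against a background of 2.78% of all tested genes, and *Acsl4* on the lower side, against a background of 6.07%.

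Past counting error were 17 genes on the higher side, which is 42.5% of the 40 against a background of 23.5%, and 6 on the lower side, which is 15.0% against a background of 25.0%. Those with lower levels were *Acsl4*, *Acadl*, *Acadsb*, *Acad11*, *Etfdh* and *Mut*. Intervals narrow as reads increase, so genes with about as many reads make a closer background. Among the 3050 genes with 296 to 1032 reads over both libraries, the middle range of the members (a band chosen after the values were seen), 29.5% were past counting error on the higher side and 26.5% on the lower side. The median log2 fold change of the 40 genes was 0.22, against -0.02 over all tested genes.

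**Figure D2:**
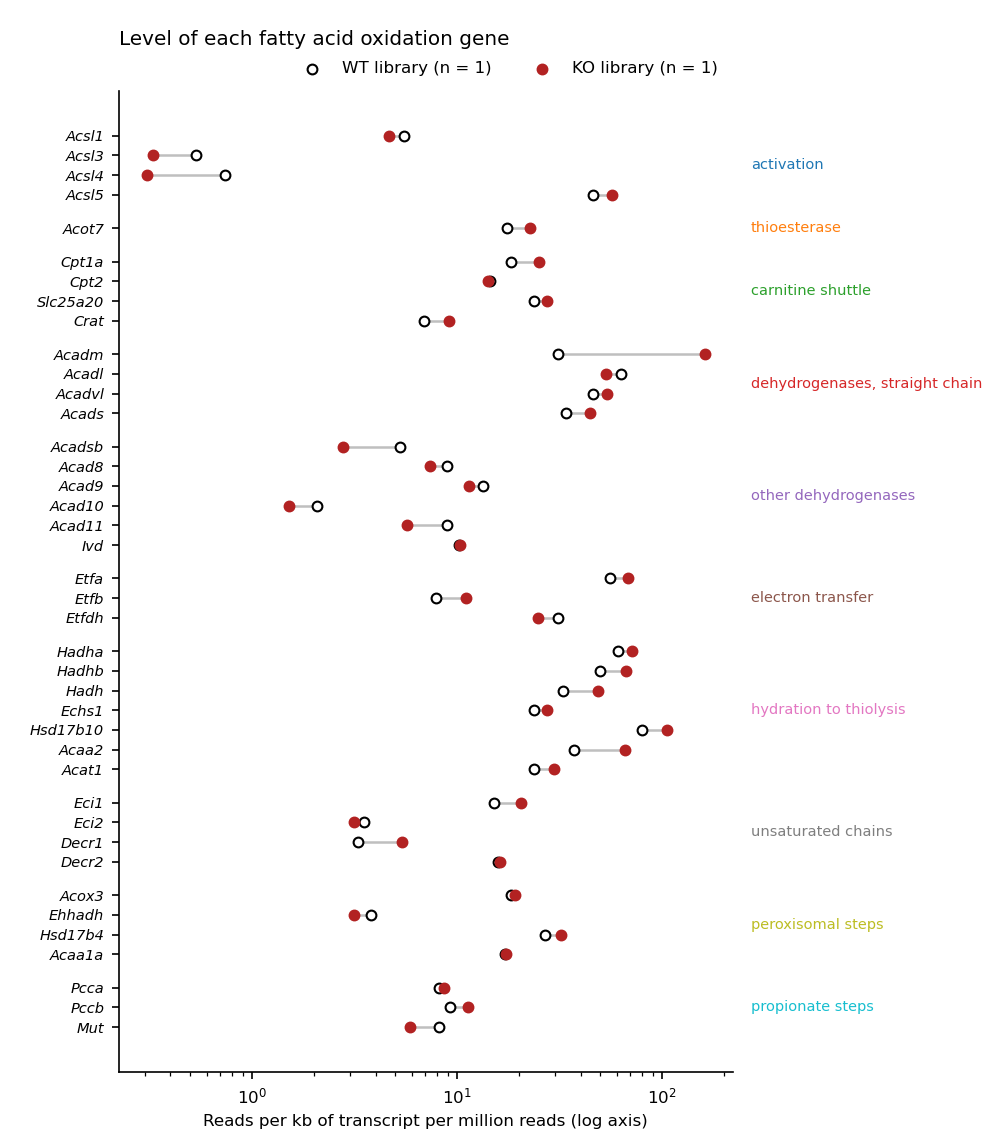
Level in RPKM (x axis, log scale) of each of the 40 genes in the WT and KO libraries, ordered by role, 1 point per library and gene. *Acadm* moves from 30.9 to 161 RPKM, and most other genes have their 2 points close together.

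**Figure D3:**
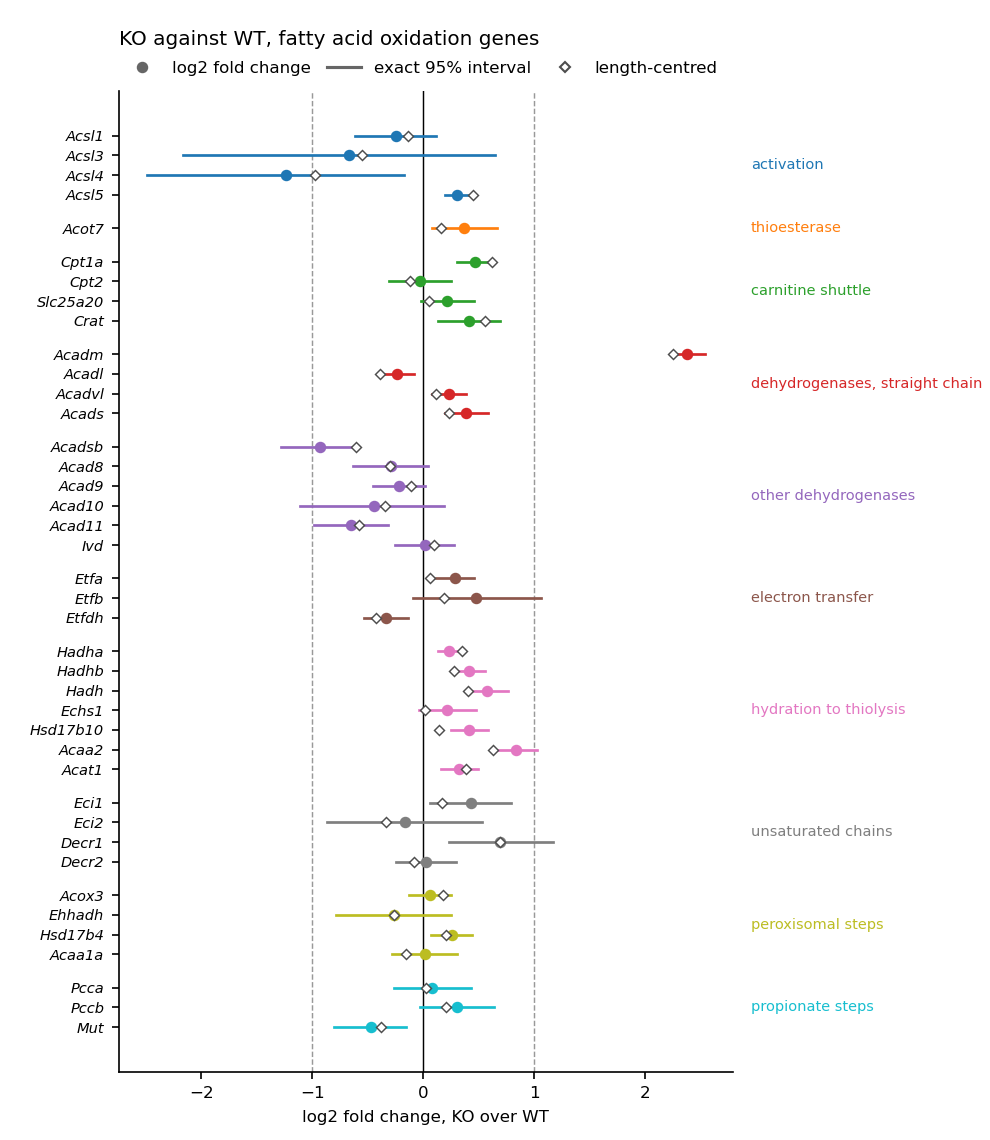
Log2 fold change (KO/WT, x axis) of each of the 40 genes, with bars for the exact 95% intervals (counting error only), blank diamonds for the value centred on transcript length and dashed lines at 2-fold. *Acadm*, at 2.38, stands to the right of all others, and *Acsl4*, at -1.23, has a wide interval from 10 reads in KO.

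Together, the 40 genes had 14038 reads in WT and 16588 in KO, or 2111 and 2682 CPM. *Acadm* made up 267 of the 571 CPM between these sums, or 46.7%. Without it, the sums were 2048 and 2352 CPM, a log2 ratio of 0.20 in place of 0.35. The share of *Acadm* in all reads of the 40 genes was 3.00% in WT and 12.3% in KO.

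A trend with transcript length ran through all genes and bears on these values. Over the 10787 tested genes with a known length, log2 fold change and length had a Spearman's rho of -0.392, and over the 40 genes it was -0.458. The genes of these correlations all share the same pair of libraries. The 1079 genes with the shortest transcripts, up to 1262 bases, had a median log2 fold change of 0.29, and the 1079 with the longest, from 6536 bases, one of -0.45. The 40 genes had a median transcript of 2484.5 bases, against 3044 bases for tested genes. When each value was centred on a loess curve against length, the median of the 40 was 0.083, against 0.003 for all genes. On that scale 12 genes were past counting error on the higher side, or 30.0% against a background of 23.3%, and 5 on the lower side, or 12.5% against 20.2%. Among genes with 296 to 1032 reads the same backgrounds were 26.8% and 21.8%. Past 2-fold were *Acadm* alone on the higher side (background 2.74%) and 0 genes on the lower side (background 4.91%). *Acadm* kept a length-centred log2 fold change of 2.25, *Acsl4* one of -0.97 with an interval from -2.23 to 0.08, and 38 of the 40 genes kept their sign, the exceptions being *Decr2* and *Acaa1a*. Why the libraries differ by length was not tested.

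**Figure D4:**
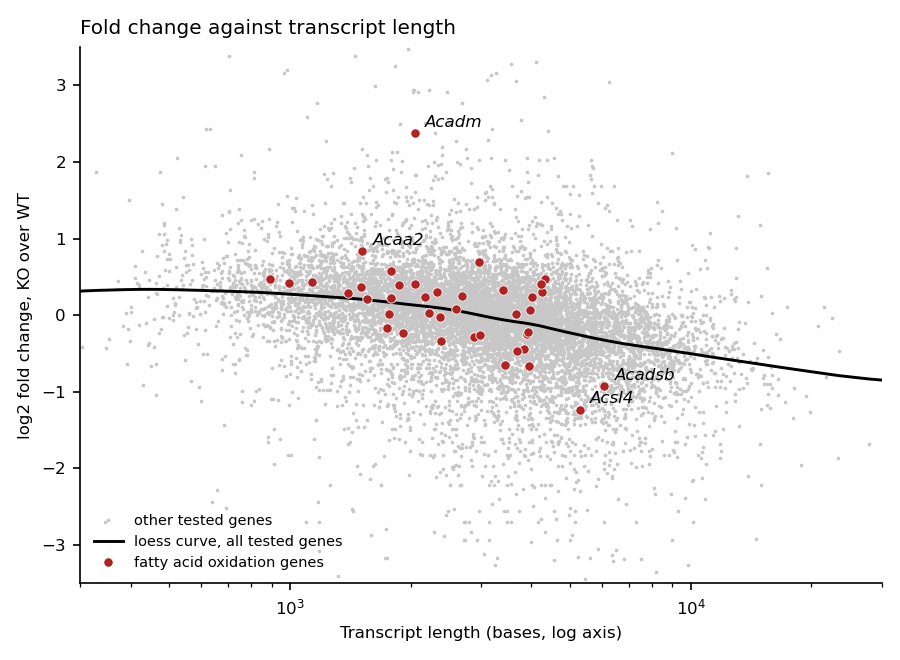
Log2 fold change (KO/WT, y axis) against transcript length in bases (x axis, log scale) for tested genes in grey, with the loess curve over all genes and the 40 fatty acid oxidation genes marked. The curve runs from above 0 for short transcripts to below 0 for long ones, and *Acadm* lies far above it. Axes end at 3.5 on either side of 0 and at 300 and 30000 bases, which leaves 73 of the 10787 genes outside.

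Of the 4 synthetase genes grouped here under activation of the fatty acid, *Acsl5* had the most reads in both libraries. Genes outside this group, such as *Slc27a4* (586 reads in WT and 537 in KO) and *Acsf2* (361 and 408), were not counted with it. The activation step as a whole was therefore not assessed. *Acsl5*, an acyl-CoA synthetase for long chains, had 1301 reads in WT and 1496 in KO, a log2 fold change of 0.31 (0.20 to 0.41). The 3 other synthetase genes of the group had lower levels in KO, of which only that of *Acsl4* was past counting error. *Acsl4*, whose enzyme prefers arachidonic acid and similar polyunsaturated chains, had 26 reads in WT and 10 in KO, a log2 fold change of -1.23 (-2.49 to -0.17). *Acsl1* had 143 and 112 reads and *Acsl3* 14 and 8, with intervals that hold 0. Of all reads on the 4 genes, *Acsl5* took 87.7% in WT (exact 95% interval 85.9 to 89.3) and 92.0% in KO (90.6 to 93.3), so its share was higher in KO by more than counting error.

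*Acsl4* lies on chrX:142317993-142390802, on the minus strand, with 16 exons. Of its 2 nearest listed genes on each side, *Ammecr1* had 146 reads in WT and 66 in KO, a log2 fold change of -1.03 (-1.48 to -0.61). *Tmem164* had 22 and 10 reads (log2 fold change -0.99, -2.28 to 0.10). *Atg4a*, an autophagy protease gene, had 132 and 103 reads (log2 fold change -0.25, -0.64 to 0.13) and *Nxt2* had 3 and 1 (-1.12, -7.19 to 2.16). All 4 values were below 0, as were 5591 of the 10881 tested genes, and *Nxt2* had too few reads to be tested. *Ammecr1* alone was past 2-fold (background 6.07%), and the intervals of the other neighbours hold 0. From *Acsl4*, *Nxt2* lies 78.3 kb away, *Tmem164* 290 kb, *Ammecr1* 460 kb and *Atg4a* 1150 kb. Centred on transcript length, *Ammecr1* was at -0.76.

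*Acot7*, a thioesterase gene whose product takes acyl-CoA back to free fatty acid, had 176 reads in WT and 212 in KO, a log2 fold change of 0.37 (0.08 to 0.67). In the carnitine shuttle, *Cpt1a* had the most reads. It codes for the carnitine palmitoyltransferase of the outer mitochondrial membrane, the rate-controlling step of entry, and had 523 reads in WT and 673 in KO, a log2 fold change of 0.47 (0.30 to 0.64). Its transcript is long, and its length-centred value was 0.62. *Crat*, the carnitine acetyltransferase gene, was the other member of the shuttle past counting error, at 193 and 239 reads (log2 fold change 0.41, 0.13 to 0.69). *Crat* overlaps *Dolpp1* on the opposite strand, and whether reads were counted by strand is not given in the sources used here. The carrier gene *Slc25a20* (281 and 304 reads) and the inner membrane transferase gene *Cpt2* (227 and 207) had intervals that hold 0.

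Among the 4 dehydrogenases of straight chains, *Acadm* and *Acadl* differed in opposite directions. *Acadl*, the long-chain enzyme gene, had 798 reads in WT and 629 in KO, a log2 fold change of -0.24 (-0.39 to -0.09). *Acadvl*, for very long chains, had 664 and 725 reads (log2 fold change 0.23, 0.08 to 0.39). *Acads*, for short chains, had 420 and 512 reads (log2 fold change 0.39, 0.20 to 0.58). In level per length, *Acadl* stood at place 2 of the 40 genes in WT and at place 9 in KO. Of all reads on the 4 genes, *Acadm* took 18.3% in WT (16.7 to 19.9) and 52.2% in KO (50.7 to 53.8), while *Acadl* went from 34.7% to 16.1%. The summed level of the group was 346.3 CPM in WT and 631.7 CPM in KO.

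Of the 6 other acyl-CoA dehydrogenases, several of which act on branched chains from amino acids, 5 were lower in KO by sign. Over all 10881 tested genes, 5591 were lower by sign. Past counting error on the lower side were 2 of the 6 (33.3%, background 25.0%), a small group for such a share. *Acad9*, whose product also serves the assembly of respiratory complex I, had the most reads, 349 in WT and 279 in KO, with a log2 fold change of -0.22 (-0.45 to 0.01). *Acadsb*, the short/branched-chain enzyme gene, had 213 and 104 reads (log2 fold change -0.93, -1.28 to -0.58). The KO level of *Acadsb* was 52.6% of the WT level, and its length-centred value was -0.60. *Acad11* had 204 and 121 reads (log2 fold change -0.65, -0.99 to -0.32). The isovaleryl-CoA dehydrogenase gene *Ivd*, for leucine breakdown, had 248 and 233 reads, which leaves a log2 fold change of 0.01. *Acad8* (172 and 131 reads) and *Acad10* (53 and 36) had intervals that hold 0, and *Acad10* overlaps *Brap* on the opposite strand. The summed level of these 6 genes was 186.3 CPM in WT and 146.2 CPM in KO.

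The electron-transferring flavoprotein that takes electrons from these dehydrogenases has an α and a β subunit. *Etfa* had 517 reads in WT and 587 in KO, a log2 fold change of 0.29 (0.11 to 0.46), and 0.07 centred on transcript length. *Etfb* had 47 and 61 reads (log2 fold change 0.48, -0.09 to 1.06). It overlaps *Cldnd2* on the same strand, which had 0 reads in WT and 2 in KO. How reads that match both genes were counted is not given in the sources used here, which limits the ratio of the subunits. Per length, *Etfa* stood at 7.06 times the level of *Etfb* in WT and at 6.17 times in KO. Its share of the pair's reads, 91.7% and 90.6%, had overlapping intervals, and the difference of the shares was not tested. *Etfdh*, the membrane dehydrogenase that hands the electrons to ubiquinone, had 493 and 364 reads (log2 fold change -0.33, -0.53 to -0.13). *Etfdh* overlaps *Ppid* on the opposite strand, which had 396 reads in WT and 455 in KO.

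The 7 genes for hydration, second dehydrogenation and thiolysis in mitochondria were all higher in KO. Past counting error were 6 of them (85.7%, background 23.5%), and 5 when centred on transcript length (71.4%, background 23.3%). Among genes with 296 to 1032 reads these backgrounds were 29.5% and 26.8%. The median transcript of the 7 was 1789 bases, against 3044 bases for tested genes. Their median log2 fold change was 0.41, and 0.35 centred on transcript length, and their summed level was 658.3 CPM in WT and 860.3 CPM in KO. *Hadha*, the α subunit gene of the trifunctional protein of the inner membrane, had the most reads, 1627 in WT and 1779 in KO, with a log2 fold change of 0.23 (0.14 to 0.33). Its β subunit gene *Hadhb* had 680 and 840 reads (log2 fold change 0.41, 0.26 to 0.56). *Hadha* took 70.5% of the pair's reads in WT (68.6 to 72.4) and 67.9% in KO (66.1 to 69.7). These intervals overlap, which does not show that the shares were equal, and their difference was not tested. Per length, *Hadha* stood at 1.22 times the level of *Hadhb* in WT and at 1.08 times in KO.

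*Hadha* lies on chr5:30119423-30154980 of the minus strand, with 20 exons, and starts next to *Hadhb*, which runs the other way. The stretch between their starts is printed because the genes of both subunits share it. It spans chr5:30154981-30155252 of GRCm38.p6, is read here on the plus strand and holds 272 bases. Capitals mark its 2 GC boxes (GGGCGG), which begin at bases 183 and 248.
Hadha and Hadhb shared: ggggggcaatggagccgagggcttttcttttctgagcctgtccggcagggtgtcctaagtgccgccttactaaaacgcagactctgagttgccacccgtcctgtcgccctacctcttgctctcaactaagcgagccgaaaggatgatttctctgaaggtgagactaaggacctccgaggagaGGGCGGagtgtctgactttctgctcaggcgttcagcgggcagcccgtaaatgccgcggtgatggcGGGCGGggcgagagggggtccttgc

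The other 5 genes of these steps act on their own as single enzymes. *Acaa2*, a mitochondrial thiolase gene, had 374 reads in WT and 620 in KO, a log2 fold change of 0.83 (0.65 to 1.02), the highest of the 40 genes after *Acadm*, though *Acsl4* and *Acadsb* differed by more in the lower direction. *Hadh*, the second dehydrogenase for short and medium chains, had 390 and 539 reads (log2 fold change 0.57, 0.38 to 0.76). *Hsd17b10*, which also belongs to the mitochondrial RNase P, had 524 and 651 reads (log2 fold change 0.42, 0.25 to 0.59). Its transcript is short, and its length-centred value was 0.14. *Hsd17b10* had the highest level per length of the 40 genes in WT, 79.4 RPKM, and the next after *Acadm* in KO, 106.1 RPKM. *Acat1*, the acetoacetyl-CoA thiolase gene, had 538 and 627 reads (log2 fold change 0.33, 0.16 to 0.49). *Echs1*, the enoyl-CoA hydratase gene, had 245 and 265 reads with an interval that holds 0, and overlaps *Paox* on the opposite strand.

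Unsaturated chains need further enzymes. *Decr2*, the peroxisomal dienoyl-CoA reductase gene, had the most reads of this group, 234 in WT and 222 in KO, with a log2 fold change of 0.03 (-0.24 to 0.30). Its mitochondrial counterpart *Decr1* had 65 and 98 reads (log2 fold change 0.69, 0.23 to 1.17). The mitochondrial isomerase gene *Eci1* had 115 and 144 reads (log2 fold change 0.43, 0.07 to 0.80), and *Eci2* had 41 and 34 reads, with an interval that holds 0. Centred on transcript length, *Decr1* was at 0.69 (0.23 to 1.17) and *Eci1* at 0.17 (-0.19 to 0.54), an interval that holds 0.

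The 4 genes grouped here as peroxisomal steps differed little between the libraries. *Hsd17b4*, a multifunctional enzyme gene for very long and branched chains, had the most reads over both libraries, 478 in WT and 531 in KO, with a log2 fold change of 0.26 (0.08 to 0.44). *Acox3*, an oxidase gene for branched chains, had 486 and 472 reads, *Ehhadh* 75 and 58, and *Acaa1a* 201 and 189, all with intervals that hold 0. Reads of *Acaa1a* could be split with its near-identical copy *Acaa1b*, which had 4 reads in WT and 0 in KO. Over the 6 genes grouped here as peroxisomal, *Decr2* and *Eci2* included, the median log2 fold change was 0.02, against 0.23 over the other 34. *Acad11* and *Crat*, both past counting error, were counted among the other 34. Whether these medians differ was not tested.

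Of the propionate steps, *Mut* (now *Mmut*), the methylmalonyl-CoA mutase gene, had the most reads over both libraries, 200 in WT and 134 in KO, with a log2 fold change of -0.47 (-0.80 to -0.15). The propionyl-CoA carboxylase subunit genes *Pcca* (140 and 138 reads) and *Pccb* (142 and 163) had intervals that hold 0. Per length, *Pcca* stood at 0.882 of the level of *Pccb* in WT and at 0.758 in KO. The summed level of the 3 genes was 72.5 CPM in WT and 70.3 CPM in KO.

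The nearest tested neighbour on each side of each gene, a comparison added after the values were seen, gave 80 genes. Of these, 3.75% were past 2-fold higher in KO, against 2.78% of all tested genes, and 7.50% were past 2-fold lower, against 6.07%. The 3 neighbours on the higher side were *Slc44a5* beside *Acadm*, *Myo5b* beside *Acaa2* and *Nkg7* beside *Etfb*. The 6 on the lower side were *Ppp6r3* beside *Cpt1a*, *Mccc1os* beside *Acad9*, *Scaper* beside *Etfa*, *Iglon5* beside *Etfb*, *Fnip2* beside *Etfdh* and *2510009E07Rik* beside *Ehhadh*. *Myo5b*, a myosin motor gene 6.51 kb from *Acaa2* on the same strand, had 2 reads in WT and 54 in KO, a log2 fold change of 4.55 (2.94 to 7.94). *Nkg7*, a granule membrane gene of cytotoxic cells, had 0 reads in WT and 42 in KO. On the other side of *Etfb*, *Iglon5* had 255 reads in WT and 72 in KO, a log2 fold change of -1.71 (-2.12 to -1.34).

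Promoter sequence of 250 bases upstream was found in the RefSeq table for 33 of the 40 genes, in 35 windows. No window was found for *Crat*, *Acad9*, *Acaa2*, *Acat1*, *Decr1*, *Hsd17b4* or *Mut*. On both strands, the half-site AGGTCA, bound by PPAR, ERR and other nuclear receptors, occurred in 5 windows, those of *Acadm*, *Acadvl*, *Cpt1a*, *Echs1* and *Pcca*, or 14.3%, against 14.0% of all windows in the table and 10.5% of those of tested genes. In *Acadm* it begins 249 bases before the start, and it was not found in the *Slc44a5* window. The longer ERR element TCAAGGTCA, which contains the half-site, was in 0 of the 35 windows, against 0.387% of all windows.

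The GC box GGGCGG was in 24 windows of the 40 genes, or 68.6%, against 58.9% for tested genes, and CCAAT was in 17, or 48.6%, against 35.6%. The ETS core CCGGAAG was in 2 (*Cpt2* and *Slc25a20*), or 5.71% against 14.6%. The TATA box TATAAA was in 0 windows, against 5.90% for tested genes. The E-box CACGTG was also in 0, against 8.64%, as was the CRE TGACGTCA, against 2.73%. These matches describe letters in short windows and say nothing of binding.

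Other genes of fatty acid oxidation, from a wider list of 71, were near the median of all genes as a list. Reads were found for 55 of them, and 46 had at least 10. Of these 46, 9 were past counting error on the higher side (19.6%, background 23.5%) and 6 on the lower side (13.0%, background 25.0%), with a median log2 fold change of 0.07. *Hacl1*, for the α-oxidation of branched chains, was past 2-fold higher with 57 reads in WT and 111 in KO, a log2 fold change of 1.06 (0.59 to 1.55).

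The regulators of the pathway gave different counts on the 2 scales. Of 24 tested regulators from a list of 34, 10 were past counting error on the lower side (41.7%, background 25.0%) and 4 on the higher side (16.7%, background 23.5%), with a median log2 fold change of -0.18. Centred on length, 6 were on the lower side (25.0%, background 20.2%) and 5 on the higher side (20.8%, background 23.3%), with a median of -0.05. *Nrip1*, a co-repressor of nuclear receptors, had 550 reads in WT and 133 in KO, a log2 fold change of -1.94 (-2.23 to -1.67), and -1.52 centred on length. *Gabpb1*, a subunit of the GABP factor, had 24 and 8 reads (log2 fold change -1.42, -2.84 to -0.28). *Tfeb*, a regulator of lysosomal genes, had 9 and 34 reads (log2 fold change 1.97, 0.93 to 3.27).

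*Ppara*, the receptor best known for inducing these genes in liver, had 1 read in WT and 0 in KO, under the limit of 3 reads that a count of 0 allows. *Ppard*, its relative in many tissues, had 429 and 436 reads (log2 fold change 0.13, -0.07 to 0.32). The coactivator gene *Ppargc1b* had 40 and 55 reads, and the receptor gene *Esrra* 252 and 271, both with intervals that hold 0. None of these 4 genes was past counting error, but *Ppargc1b* was when centred on length, at 0.65 (0.04 to 1.28).

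The genes of the tricarboxylic acid cycle, which takes up the acetyl-CoA made by the spiral, were higher in KO more often than lower. Of 22 genes, 15 were past counting error on the higher side (68.2%, background 23.5%) and 0 on the lower side (background 25.0%). None was past 2-fold, against backgrounds of 2.78% higher and 6.07% lower. The 22 genes had a median log2 fold change of 0.30 and a summed level of 3119 CPM in WT and 3835 CPM in KO. Centred on length, 11 were past counting error on the higher side and 1 on the lower side, with a median of 0.17. For fatty acid synthesis, the opposite direction of metabolism, 7 of 16 tested genes were past counting error on the higher side (43.8%, background 23.5%). On the lower side were 2 (12.5%, background 25.0%), none was past 2-fold, and the median was 0.15. Centred on length, 9 were on the higher side (56.2%, background 23.3%) and 0 on the lower side (background 20.2%), with a median of 0.28. Their summed level went the other way, from 3020 CPM in WT to 2907 CPM in KO, a log2 ratio of -0.06 (-0.08 to -0.03). No difference between these lists was tested.

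**Figure D5:**
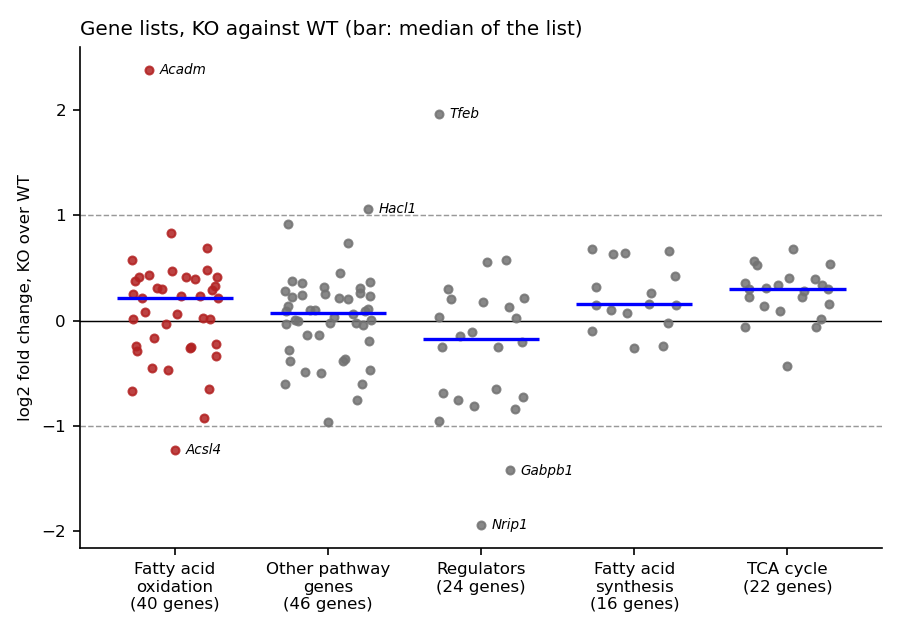
Log2 fold change (KO/WT, y axis) of the tested genes of each list, 1 point per gene, with a blue bar at the median and dashed lines at 2-fold. Medians of the fatty acid oxidation genes (0.22) and of the tricarboxylic acid cycle genes (0.30) lie above 0, and that of the regulators (-0.18) below.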

How the data were processed

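RNA of 1 WT and 1 KO library was analysed. The authors deposited raw read counts per gene. According to their methods, reads were mapped to mm10 with SOAP2, and the submitters' processing notes name HTSeq. The annotation, the treatment of reads that match more than 1 gene and the use of strand are not given in the sources used here. A gene missing from 1 of the tables was given 0 reads there.

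Counts were scaled to the library totals, 0.5 was added to each, and a gene was tested from 10 reads, summed over WT and KO. Exact (Clopper-Pearson) 95% intervals came from SciPy 1.17.1 (Python 3.11.15). They cover counting error only, and 3 reads, taken as the floor, are 0.451 CPM in WT and 0.485 CPM in KO. Positions, exons and promoters came from RefSeq (GRCm38.p6), while GENCODE M21 gave the longest protein-coding transcript with its length and GC content. Of 13704 names, 12833 matched a current symbol, 795 a unique older symbol and 76 none. The loess curve (statsmodels 0.14.6) had a span of 0.3. Calculations were tested on simulated data.

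The members and lists were chosen with earlier results of these data known, so their patterns are no independent support. Named in full were members past 2-fold, the member with the most reads in each role, genes of the other lists past 2-fold, *Ppara*, *Ppard*, *Ppargc1b*, *Esrra*, *Trim28* and the 2 nearest listed genes on each side of members past 2-fold. The other members are given by reads. *Myo5b*, *Nkg7*, *Foxp3*, *Fpgt*, *Fam73a*, *Zzz3* and the neighbours past 2-fold lower were named after their values were seen. Alternatives were TMM and upper-quartile scaling (edgeR 4.0.16, R 4.3.3), DESeq2 1.42.0 size factors, 5 added to each count, other filters, centring on length or GC content, a 1.5-fold limit and assumed variation between cultures. Of the list of other pathway genes, 1 gene is not reported here and was left out of its counts.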

Additional observations from a re-analysis of the deposited data

How the results depend on the processing

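The main counts were 1 gene lower (*Acsl4*) and 1 higher (*Acadm*) past 2-fold, and 6 lower and 17 higher past counting error. No gene was past 2-fold lower with 5 added to each count, with centring on transcript length or on GC content, or with an assumed coefficient of variation between cultures of 0.2 or 0.4, so that 0 stood in place of 1. Centring on GC content left 3 genes lower past counting error. At a limit of 1.5-fold, 3 genes were lower and 3 higher, counts without a background share here. With an assumed variation of 0.2, 1 gene (*Acadsb*) was lower and 2 (*Acadm* and *Acaa2*) higher beyond the widened interval. With 0.4, 0 were lower and 1 (*Acadm*, 0.77 to 3.99) higher. No share over all tested genes is given here for 5 added to each count, for centring on GC content or for assumed variation. Those counts therefore describe the members only. Centring on length moved the median from 0.22 to 0.083, and leaving out *Acadm* moved the log2 ratio of the summed level from 0.35 to 0.20. Of 319 values of single genes under the alternatives, 314 moved by less than counting error and no called value reversed. The 5 others moved with length (*Acsl5*, *Etfa*, *Hadha*, *Hsd17b10* and *Acaa2*). Other scalings shifted all values by at most 0.019. No paired analysis was possible because there was 1 library per genotype. Genes with few reads, such as *Acsl3*, *Acsl4* and *Etfb*, are limited by depth, and differences within their intervals were not detectable at this depth.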
